A study of Caenorhabditis elegans with 2 samples.

Results

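Innexins are the proteins from which invertebrates build gap junctions, the channels that pass ions and small molecules directly from cell to cell. In the Caenorhabditis elegans gonad, germ cells are coupled to the somatic sheath around them through such channels, and this coupling is known to be needed for germ cell proliferation and to hold oocytes back from maturing until sperm signals arrive. The germ cell side is made by INX-14, paired with INX-21 or INX-22, and the somatic side by INX-8 and INX-9.

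The 10 innexin genes described here were given by name, as 3 genes of germ cells (inx-14, inx-21 and inx-22) and 7 somatic genes (inx-8, inx-9, inx-3, inx-6, inx-12, inx-13 and inx-16), out of 25 innexin genes and 19973 protein-coding genes in the annotation. Of the somatic genes, inx-8 and inx-9 are those of the gonad sheath, and the others are known from tissues outside the gonad. The data are chromatin immunoprecipitation with sequencing (ChIP-seq) of MADF-8, a protein with a MADF DNA-binding domain, in whole young adults of strain RW12322, 64 hours of age, with 2 biological replicates. The worms were grown from first-stage larvae starved after bleaching. All worms carried a CRISPR insertion in madf-8 on chromosome III that adds TY1, EGFP and 3xFLAG to the protein (allele st12322), and an antibody against GFP was used. The labels give the 2 libraries the same strain and no second condition, so the replicates form 1 group.

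The values are the authors' lists of sites, and the sequencing depth behind them is unknown. The list made from both replicates held 1972 sites that passed a cut-off on their irreproducible discovery rate (IDR), which measures how well the rank of a site repeats between 2 rankings. Its IDR score ran from 830 to 1000, and its signal had a median of 119.66. The signal is a value of the authors for each site, and the sources used here give neither its units nor what it measures. The full ranked lists held 40115 candidates in replicate 1 and 31379 in replicate 2, most of them weak. A gene was counted as having a site when a summit lay from 1000 bp upstream of the gene start to the gene end. The genes were selected on these site calls, the presence and the signal of a site in this list, so their counts and signals are given as a description with no test. Coordinates are those of assembly ce11 (WBcel235).

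Among the 10 innexins, inx-14 and inx-22 had a site and the other 8 had none, against 10.05% of all protein-coding genes with a site in the same window. Both genes belong to the germ cell set, of which 2 of 3 had a site. None of the 7 somatic genes had one. The third germ cell gene, inx-21, lies just behind inx-22 on the same strand and had no site of its own.

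The strongest site was at inx-14, the gene for the subunit shared by both kinds of germ cell channel (WBGene00002136; I, 7350309 to 7352235, minus strand). It ran from 7352154 to 7352345, and its summit lay 40 bp upstream of the gene start, outside the gene. Its signal was 463.44 in the list of both replicates, where 7.45% of the sites were stronger. The signal was 192.31 in replicate 1 and 274.36 in replicate 2, on the scale of each replicate's own list, with a score of 1000 in both. In the replicates the summits were placed 25 and 45 bp before the start. Of the candidates, 0.411% were stronger in replicate 1 and 0.443% in replicate 2.

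The site at inx-22, a partner of inx-14 in the oocyte (WBGene00002144; I, 3608518 to 3611844, plus strand), was weaker. It ran from 3608358 to 3608441, and its summit lay 121 bp upstream of the start, outside the gene. The signal was 192.8 in the list of both replicates, 85.01 in replicate 1 and 111.77 in replicate 2, again with a score of 1000 in each. Of the sites in the list of both replicates, 27.03% were stronger. It was one of the narrowest sites, at 84 bp against a median width of 276 bp, and 2.33% of the sites were narrower. In the replicates' own lists the same site ran from 3608270 to 3608519 and from 3608257 to 3608520. The summits of the replicates were 123 and 129 bp before the start. The signal at inx-14 was 2.26 times that at inx-22 in replicate 1 and 2.45 times in replicate 2.

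The gene inx-21 (WBGene00002143; I, 3611942 to 3618317, plus strand), whose product works with INX-14 in germ cell proliferation, begins after a gap of 97 bp behind inx-22. Its strongest candidate had a signal of 18.98 in replicate 1, 5 bp inside the gene, and of 21.58 in replicate 2, 375 bp upstream of the start and so within inx-22. The scores of these candidates were 80 and 33, and they did not overlap. The candidate of replicate 2 that overlapped that of replicate 1 lay 150 bp inside inx-21, with a signal of 14.35 and a score of 16. The nearest site was that of inx-22, 3545 bp upstream of the inx-21 start and beyond the window. The files hold sites and no transcripts, so whether inx-22 and inx-21 are transcribed together was not tested.

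**Figure D1:**
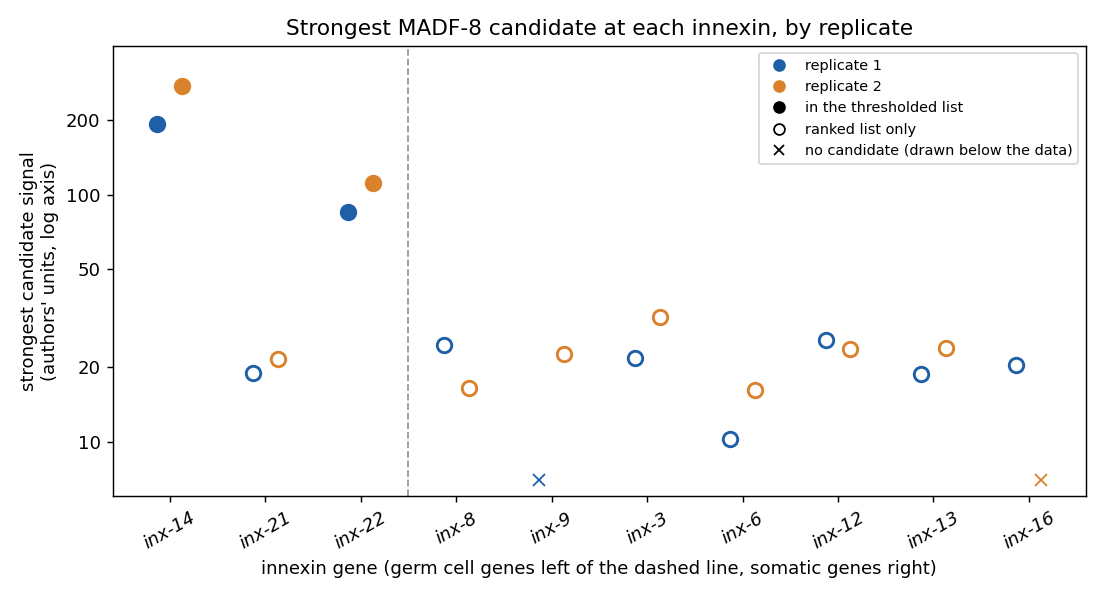
Signal of the strongest candidate in each gene's window (y axis, the authors' units on a log scale) for the 10 innexins (x axis), one point per replicate, with filled points for candidates kept in the replicate's thresholded list and crosses where a replicate had no candidate. The 4 filled points belong to inx-14 and inx-22, at 85.01 or more, and all open points lie at 31.94 or less.

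Both sites lay in short gaps between genes that point away from each other. The gap between inx-14 and its upstream neighbour spsp-1 is 179 bp, and the summit was 40 bp from the start of inx-14 and 140 bp from that of spsp-1. The gap between inx-22 and Y47G6A.25 is 172 bp, and there the summit was nearer to the neighbour, 52 bp from the start of Y47G6A.25 and 121 bp from that of inx-22. Each summit therefore lay in the windows of both genes of its pair, and the lists do not say which gene the site belongs to. When each site was given only to the gene with the nearest start, inx-14 kept its site and inx-22 did not.

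The arrangement of genes was not named in the choice of the members, but it is not independent of it. The members were selected on site calls, and sites were more frequent at genes with a divergent neighbour. Of all protein-coding genes with a divergent neighbour within 1000 bp, 22.9% had a site in the window, against 8.69% of those with a neighbour on the same strand and 6.6% of those with no upstream neighbour that near. A summit in such a divergent gap counts for both genes, and the part of this in the 22.9% was not tested. Of the 10 innexins, 3 had a divergent neighbour within 1000 bp, namely inx-14, inx-22 and inx-16, against 17.5% of all protein-coding genes. The gap of inx-16 to its neighbour inx-15 is 921 bp and neither gene had a site.

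The 7 somatic innexins had candidates in the ranked lists but none near the threshold. The strongest candidate signal per gene ran from 18.98 to 192.31 among the 3 germ cell genes and from 10.2 to 25.78 among the 6 somatic genes with a candidate in replicate 1. In replicate 2 the ranges were 21.58 to 274.36 for the germ cell genes and 16.22 to 31.94 for 6 somatic genes. The ranges overlapped through inx-21, whose values lay within the somatic range in both replicates. In replicate 2 that value was of the candidate within inx-22. Both replicates gave inx-14 and then inx-22 as the highest. The order below them changed between replicates, with inx-12 next in replicate 1 and inx-3 next in replicate 2, so the other 8 genes were not ordered beyond the difference between replicates. Whole worms were used, so a weaker site and a site held in fewer cells cannot be told apart.

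The gonad sheath genes inx-8 (WBGene00002130; IV, 11673843 to 11675635, plus strand) and inx-9 (WBGene00002131; IV, 11676354 to 11678497, plus strand) lie next to each other, 718 bp apart, and had no site. At inx-8 the strongest candidate had a signal of 24.57 and a score of 14 in replicate 1, with its summit 12 bp inside the gene in the 5′ untranslated region. In replicate 2 the only candidate overlapped it, with a signal of 16.53, a score of 16 and its summit 61 bp inside the gene in coding sequence. At inx-9 replicate 1 had no candidate and replicate 2 had 1, with a signal of 22.58 and a score of 64, in an intron 187 bp inside the gene. The nearest site lay 12.71 kb from the window of inx-8 and 15.22 kb from that of inx-9.

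The broadly expressed somatic gene inx-3 (WBGene00002125; X, 5996156 to 5998243, plus strand) had the strongest candidate in the ranked list of both replicates among the genes without a site. It lay upstream of the gene at matching places in both replicates, with a signal of 21.79 in replicate 1 (437 bp upstream, score 35) and 31.94 in replicate 2 (413 bp upstream, score 71). In the ranked list of both replicates the signal of this candidate was 56.06 with a score of 55, and 9.52% of the candidates were stronger. The nearest site to its window was 476.59 kb away, on a chromosome where 1.5% of the protein-coding genes had a site in their window.

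The letters around the summits of the strongest candidates of inx-3 and inx-9 in the ranked list of both replicates are shown. They can be set beside the letters at the sites of inx-7 and inx-11, shown further below. The letters at the sites of inx-14 and inx-22 are not shown. In the ranked list of both replicates the summit at inx-9 lay 154 bp inside the gene, in coding sequence. Its signal was 24.75, and 76.8% of the candidates were stronger. Each is the 101 bp centred on the summit, on the strand of the gene, from the reference sequence of WBcel235. The inx-3 window is chrX:5995682-5995782 and the inx-9 window is chrIV:11676458-11676558. Capitals would mark the words AAGGCGCA, AAAGGCGC and GCGAGACC on either strand, of which the first and the second overlap by 7 bases, and neither window holds any.
inx-3: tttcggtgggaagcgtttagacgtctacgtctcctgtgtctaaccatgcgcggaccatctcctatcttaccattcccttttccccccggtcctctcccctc
inx-9: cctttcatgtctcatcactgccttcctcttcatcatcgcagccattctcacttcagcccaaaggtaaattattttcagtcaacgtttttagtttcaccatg
The share of G and C was 55.4% in the inx-3 window and 41.6% in the inx-9 window, against a median of 43.6% over the windows of all 1972 sites.

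The genes of the epidermis and excretory canal, inx-12 (WBGene00002134; I, 3755488 to 3759039, minus strand) and inx-13 (WBGene00002135; I, 3748523 to 3753958, minus strand), had several weak candidates each. At inx-12 the strongest had a signal of 25.78 in replicate 1, 267 bp upstream of the start, and of 23.72 in replicate 2, in an intron 1898 bp inside the gene, so the replicates did not place it at the same spot. The candidate in replicate 2 had a score of 143, the highest in that replicate among the 8 innexins without a site. At inx-13 replicate 1 had 5 candidates and replicate 2 had 4, and 2 of those in replicate 1 overlapped candidates of replicate 2. The strongest had signals of 18.72 and 24.0, both in introns. The pharyngeal gene inx-6 (WBGene00002128; IV, 12746584 to 12749721, plus strand) had signals of 10.2 and 16.22 with scores of 14 and 16 and no overlap between replicates. The intestinal gene inx-16 (WBGene00002138; I, 4162035 to 4165025, plus strand) had 1 candidate in replicate 1, with a signal of 20.47 and a score of 14 in coding sequence, and none in replicate 2.

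Among the 10 genes, which were selected on these calls, the members inside the threshold had scores of 1000 in each list. The highest score among the 8 genes outside it was 112 in replicate 1 (inx-13), 143 in replicate 2 (inx-12) and 105 in the ranked list of both replicates (inx-21). Across these 8 genes there were 14 candidates in replicate 1 and 16 in replicate 2, and 5 of each overlapped a candidate of the other replicate. The share of all candidates that overlap between the replicates is not given here, so these counts cannot be called low or high.

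**Figure D2:**
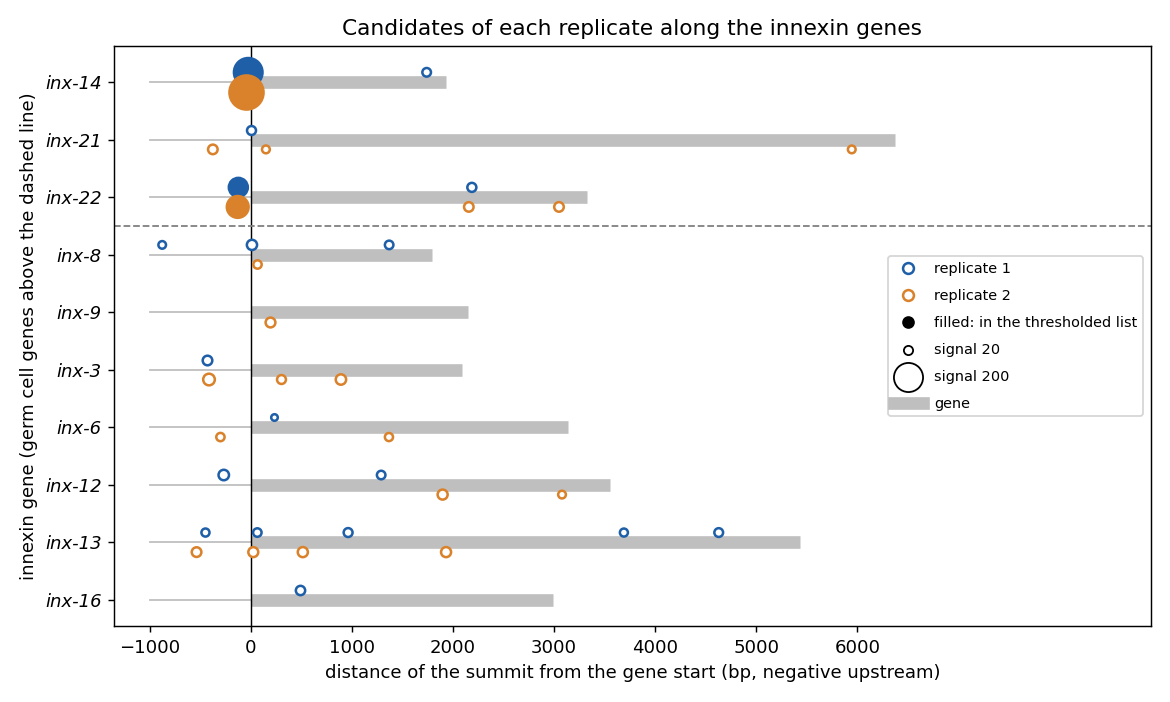
Position of every candidate of the replicates' ranked lists along the 10 innexins, as distance of the summit from the gene start (x axis, bp, negative upstream), with gene bodies as grey bars, point area in proportion to signal, and filled points for candidates kept in the thresholded lists. The filled points of inx-14 lie 25 and 45 bp upstream and those of inx-22 lie 123 and 129 bp upstream, while the open points are spread over upstream sequence and gene bodies.

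A candidate in the ranked lists was common and set few genes apart. Of the 10 innexins 8 had a candidate in both replicates, against 55.7% of all protein-coding genes, and 6 had overlapping candidates in the replicates, against 42.4%. All 3 germ cell genes had overlapping candidates, and so did the somatic genes inx-8, inx-3 and inx-13. The strength of the candidate differed more, but the genes were selected on the presence and signal of a site. The high shares of inx-14 and inx-22 are therefore a description. For inx-14, 99.05% of protein-coding genes had a weaker or no candidate in replicate 1 and 99.2% in replicate 2. For inx-22 the shares were 96.7% and 96.97%. Genes without a candidate count as weaker in all these shares, and 14550 of the 19973 genes had one in replicate 1 and 13075 in replicate 2. At inx-21 the shares were 52.9% and 65.1%. The somatic genes with a candidate lay between 28.2% and 77.3% in replicate 1 and between 45.2% and 85.8% in replicate 2. Among genes with a window of like length, from 0.8 to 1.25 times as long, the shares were 98.9% and 99.1% at inx-14, 96.3% and 96.5% at inx-22, and 31.4% and 48.3% at inx-21.

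**Figure D3:**
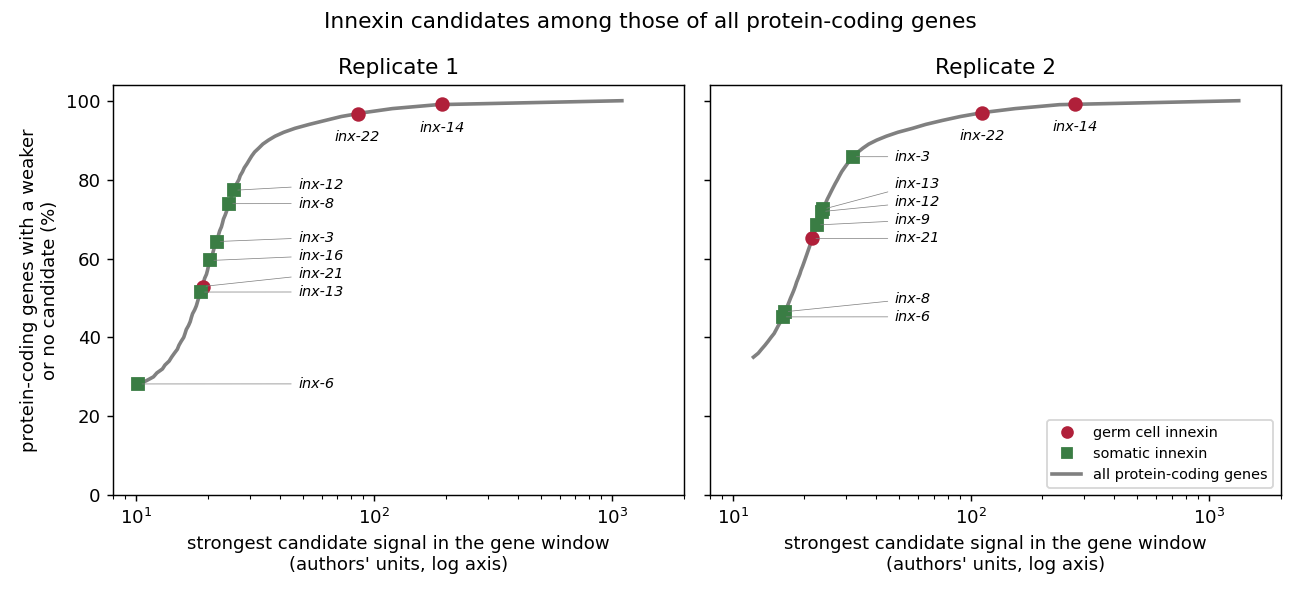
Share of protein-coding genes with a weaker or no candidate in their window (y axis, %) against the signal of the strongest candidate (x axis, the authors' units on a log scale) in replicate 1 (left) and replicate 2 (right), with the grey curve for all 19973 genes, red circles for germ cell and green squares for somatic innexins. In both replicates inx-14 and inx-22 lie at 96.7% or higher, and inx-21 lies among the somatic genes.

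Gene length and chromosome bear on how often a window holds a site. Among genes with a window of like length, 9.02% had a site for the window of inx-14, 10.9% for inx-22 and 13.98% for the longer inx-21. For the somatic genes the share ran from 8.74% for inx-8 to 13.04% for inx-13. All 3 germ cell genes lie on chromosome I, where 14.98% of the protein-coding genes had a site in their window, together with inx-12, inx-13 and inx-16. The other 4 somatic genes lie on IV, where the share was 9.75%, and on X. The germ cell genes thus share a chromosome on which sites were more frequent than on IV or X, and the part of this in the difference between the sets was not tested.

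The sequence around the sites differed between inx-14 and inx-22. Of the words AAGGCGCA, AAAGGCGC and GCGAGACC, which were known from earlier results on these sites, the site at inx-14 held AAAGGCGC within 50 bp of the summit. It lay from 32 to 39 bp downstream of the summit, counted along the strand of the gene, and read on the opposite strand. The site at inx-22 held none of the 3 words, also within 100 bp of the summit. Of all 1972 sites, 19.5% held at least 1 of the words within 50 bp and 12.1% held AAAGGCGC, against 0.726% and 0.381% of windows of the same length just upstream of protein-coding gene starts. The words were known from these same sites, so this contrast is a description and no support for the words. The windows also differ in placement, centred on summits for the sites and upstream of starts for the genes. G and C made up 42.6% of the window at inx-14 and 36.6% of that at inx-22, against the median of 43.6%. A word is a match of letters and not a measured contact.

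In the list of both replicates and the replicates' ranked lists, the sites with the nearest signals to that of inx-14 were those at C44B9.2, W05F2.3 and yop-1, each named by the gene with the nearest start. Nearness was the Euclidean distance of the log2 signals over the 3 lists, among 1942 sites with a candidate in both replicates, and it was 0.065, 0.068 and 0.069. The signals of these sites were 480.4, 453.78 and 472.58 in the list of both replicates. For inx-22 the nearest were alg-2, a gene for an Argonaute of the microRNA pathway, C01G10.7 and R06C1.4, at distances of 0.028, 0.039 and 0.039 and with signals of 195.82, 196.56 and 189.81. The distance to the nearest start was 2321 bp at C44B9.2, 136 bp at W05F2.3 and 1338 bp at yop-1, so that the first and the third lay over 1000 bp from the start of the gene that names them. It was 79 bp at alg-2, 119 bp at C01G10.7 and 608 bp at R06C1.4.

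The remaining 15 innexins were set beside the named ones. A site was present at 2 of them, inx-7 and inx-11 (13.3%, against 10.05% of all protein-coding genes), and both lay inside the gene and not at its 5′ end. The site at inx-7 (WBGene00002129; IV, 5943981 to 5946638, minus strand) ran from 5945532 to 5945807, in an intron, 968 bp inside the gene and 355 bp upstream of the start of a shorter transcript. Its signal was 84.97 in the list of both replicates, 49.56 in replicate 1 and 38.62 in replicate 2, where its score of 54 was below the threshold. The site at inx-11 (WBGene00002133; V, 12487234 to 12493269, plus strand) ran from 12491134 to 12491409, in an intron, 4038 bp inside the gene, and overlapped the snoRNA gene W04D2.7 and the noncoding gene W04D2.14. Its signal was 77.73, with 37.21 in replicate 1, where its score of 542 was below the threshold, and 46.57 in replicate 2. Of the sites in the list of both replicates, 75.8% were stronger than the site at inx-7 and 82.8% than that at inx-11, against 7.45% and 27.03% for inx-14 and inx-22. The 13 others had no site, and their strongest candidates had signals from 18.33 to 34.59 in replicate 1 for 10 genes and from 15.72 to 33.75 in replicate 2 for 9 genes. The highest of these were little below the 37.21 of inx-11 in replicate 1 and the 38.62 of inx-7 in replicate 2.

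The 2 intronic sites differ in sequence, shown as the 101 bp centred on each summit, on the strand of the gene, from the reference sequence of WBcel235 (chrIV:5945620-5945720 for inx-7 and chrV:12491222-12491322 for inx-11). Capitals mark the searched words, which are found at inx-7 in the reverse direction as AAGGCGCA and AAAGGCGC, overlapping by 7 bases.
inx-7: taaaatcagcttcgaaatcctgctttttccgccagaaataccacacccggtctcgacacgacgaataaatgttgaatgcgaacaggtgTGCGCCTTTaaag
inx-11: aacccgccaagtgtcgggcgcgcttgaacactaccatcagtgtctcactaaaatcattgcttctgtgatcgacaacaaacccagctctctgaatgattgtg
The window at inx-7 holds both words from 38 to 46 bp downstream of the summit along the gene, and the window at inx-11 holds none of the 3.

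Genes of the gonad sheath and of oocyte maturation and ovulation gave a wider setting for the innexins. Of 34 such genes 11 had a site (32.4%), against 10.05% of all protein-coding genes, and the other 23 had none. The list was chosen with earlier results of these data known. It mixes sheath genes with genes of the oocyte and of cell division, so its share does not describe sheath genes alone. Without a site were ceh-18, lim-7, fkh-6, acy-4, gsa-1, kin-1, kin-2, pde-6, sacy-1, vab-1, vpr-1 and itr-1. The rest without one were lfe-2, plc-1, let-23, let-502, mel-11, tnc-2, unc-54, myo-1, pat-10, fln-1 and mpk-1. The 3 strongest sites were at oma-1, oma-2 and rme-2, with signals of 824.04, 607.35 and 590.06. The first and second encode CCCH zinc finger proteins of the maturing oocyte, and rme-2 encodes the yolk receptor of the oocyte. The others were at plk-1, cyb-3, puf-5, cdk-1, wee-1.3, emr-1, lin-3 and lin-41, named after their values were seen. Of these, plk-1, cyb-3, cdk-1 and wee-1.3 encode kinases and a cyclin of cell division, and lin-3 encodes the EGF ligand. The gene emr-1, counted among the 11, encodes emerin, a nuclear envelope protein not particular to the gonad. The sites at lin-3 and lin-41 had signals of 80.33 and 75.57, and the first was kept in replicate 2 alone and the second in neither replicate. The signal of 463.44 at inx-14 lay between those at rme-2 and plk-1 (454.77), and that of 192.8 at inx-22 between puf-5 (331.79) and cdk-1 (172.34).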

How the data were processed

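The authors deposited, for 2 biological replicates of 1 group and for both together, ranked candidate lists and lists kept at an IDR threshold on assembly ce11, per the file headers and descriptions. The score deposited for a site is its scaled IDR score. The signal deposited for a site is a value of the authors, compared only within a list. The lists also rest on a control file, not used here. How reads were aligned, peaks called and the signal scaled is not given in the sources used here. In the ranked lists of the pair, 16 columns with values of single replicates name no sample and were not used. Nothing beyond the label of biological replicate says how the cultures were separated.

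Genes came from Ensembl release 115. Site ends lay within the WBcel235 chromosome lengths. A candidate overlapped another by at least 1 bp. The summit rule was tested on simulated data. The members, lists and words were chosen with earlier results of these data known. By rule, named genes are all members, other innexins with a site, the 3 strongest in the sheath list, neighbours at the sites and the 3 sites nearest in signal to each germ cell member's site. The other sheath list genes named, with or without a site, inx-15 and the noncoding genes at inx-11 were outside this rule. They were named after their values were seen. Alternatives were other lists, windows and linking rules. Analyses used Python 3.11.15, numpy 2.4.6, pandas 2.3.3 and matplotlib 3.10.9.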

Additional observations from a re-analysis of the deposited data

How the results depend on the processing

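No paired analysis was possible because there is 1 group. Of 65 alternative values 55 stayed equal or within 1.5 times. These values are not independent and do not measure robustness. Members with a site, germ cell members with a site and sites in member windows count the same sites, at inx-14 and inx-22. The somatic counts were 0 throughout, and the genes were selected on these site calls. The germ cell genes with a site were inx-14 and inx-22, and no somatic gene had one, in the conservative list, in each replicate alone, in the stronger sites, with each other window and by any overlap. When each site was given to the gene with the nearest start, members with a site, germ cell members with a site and sites in member windows were 1 each. Other innexins with a site numbered 1 without replicate 2 (inx-7) and 1 without replicate 1 (inx-11), 0 among sites at or above the median signal, and 1 within 500 bp before or 100 bp after a transcript start. Among the sites at or above the median signal, 7 genes of the sheath and oocyte maturation list had a site, and 5.76% of all protein-coding genes. In the conservative list 14 genes of the sheath and oocyte maturation list had a site, against 11 in the list of both replicates. The share of all protein-coding genes was 10.1% in the conservative list and 10.05% in the list of both replicates. With candidates of a score of at least 540, 2 members had a candidate in both replicates, inx-14 and inx-22. In these alternatives the list, the window or the linking rule itself sets which sites can count. With 2 replicates and no read depth, a gene without a site is below the authors' threshold and not shown to lack MADF-8.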
